A study of Homo sapiens with 12 samples.

Results

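Glypicans and syndecans are the main families of cell-surface proteins that carry heparan sulfate, a long and unevenly sulfated sugar chain. Glypicans are tied to the outer leaflet of the membrane by a lipid (GPI) anchor, while syndecans span the membrane and end in a short cytoplasmic tail. Their chains hold growth factors, morphogens such as Wnt, Hedgehog and BMP proteins, and matrix proteins at the cell surface, and in mesenchymal and tumor cells they are studied for this co-receptor role. The 10 human genes of both families, 6 glypicans (GPC1 to GPC6) and 4 syndecans (SDC1 to SDC4), were taken by their symbols from a table of 58735 gene IDs, and 9 of them were among the 18415 genes tested. GPC5 was below the filter of a mean of 5 counts over all libraries.

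The RNA came from SW872, a line grown from a human liposarcoma, into which TAZ-CAMTA1 (TC) or YAP-TFE3 (YT) had been stably introduced, the gene fusions of epithelioid hemangioendothelioma, by a retrovirus under drug selection. Each line also carried a lentiviral hairpin: non-targeting (shNT), against YEATS2 (shYEATS2) or against ZZZ3 (shZZZ3). YEATS2 and ZZZ3 are subunits of the ATAC histone acetyltransferase complex, and the knock-downs ask what each fusion line needs that complex for. The 6 groups (TC shNT, TC shYEATS2, TC shZZZ3, YT shNT, YT shYEATS2 and YT shZZZ3) held 2 libraries each, 12 in all, and no group lacked a fusion or a hairpin. All groups are pooled drug-selected cells of 1 cell line, and the labels do not name the hairpin used. The methods of the study say that lines with CAMTA1 were collected below confluence and the others after confluence. Whether TAZ-CAMTA1 lines count among these, and whether this held for the hairpin libraries, is not stated. In comparisons of YT with TC the fusion and the density of the culture therefore cannot be told apart.

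Total counts ran from 17451893 to 29294805 per library. YEATS2 transcripts fell under its hairpin in both lines (TC log2 fold change -1.54, SE 0.177, adjusted p = 0.0138, and YT -1.68, SE 0.178, adjusted p = 0.000104). The ZZZ3 hairpin lowered ZZZ3 in YT (-1.51, SE 0.425, adjusted p = 0.0453), and the value in TC was -0.94 (SE 0.421) with an adjusted p of 0.45, where the TC shNT libraries themselves stood at 25.6 and 60.4 CPM (TMM-scaled counts relative to library size). In YT, ZZZ3 read 71.2 and 49.1 CPM under shNT and 12.6 and 29.6 under shZZZ3. Under shYEATS2 it was also below shNT, at 31.4 and 30.7 CPM, close to the higher shZZZ3 library. The YEATS2 call in TC was lost without TC shZZZ3 replicate 1 or either YT shNT library (adjusted p up to 0.0549), and the ZZZ3 call in YT was kept in 3 of 12 fits without 1 library (up to 0.296), namely those without either TC shNT library or YT shZZZ3 replicate 2. Fits of the 4 libraries alone called neither (adjusted p = 0.164 and 0.0563), library totals lost the ZZZ3 call in YT (0.0864), and the fit with no filter called ZZZ3 in TC (0.0114). Among the 13258 genes whose mean reached 50 counts, 7.69% differed by over 2-fold between the TC shNT libraries, 4.5% between those of TC shYEATS2, 4.12% between those of YT shZZZ3 and at most 0.543% within the other groups. Of the mesenchymal markers, VIM (mean 702 to 1949 CPM) and FN1 (3049 to 9438 CPM) were high in all groups and THY1 was lower (15.3 to 54.7 CPM), the leukocyte marker PTPRC was at or near 0, and of the adipocytic markers LPL (78.7 to 213 CPM) and PPARG (39.9 to 81.7 CPM) were present while FABP4 and ADIPOQ were at or near 0. Keratin genes KRT8 and KRT18 and the endothelial genes CDH5 and KDR were also read in every group. The epithelial genes EPCAM (means 0.35 to 1.68 CPM) and CDH1 (0.0605 to 0.592 CPM) were low, so the epithelial sums below are nearly all keratin. Of the other endothelial markers, PECAM1 had means of 2.38 to 20.8 CPM and VWF 0.906 to 3.11 CPM.

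The promoters of the members are shown first for the gene that moved furthest, GPC4, for SDC3, the member with the highest mean level, and for the scarce GPC6. Each line holds the 250 bases before the RefSeq start site, 5′ to 3′ on the strand of the gene (GRCh38.p14), with CG dinucleotides in capitals. They lie at chrX:133415490-133415739 on the minus strand, chr1:30908759-30909008 on the minus strand and chr13:93226557-93226806 on the plus strand.
GPC4: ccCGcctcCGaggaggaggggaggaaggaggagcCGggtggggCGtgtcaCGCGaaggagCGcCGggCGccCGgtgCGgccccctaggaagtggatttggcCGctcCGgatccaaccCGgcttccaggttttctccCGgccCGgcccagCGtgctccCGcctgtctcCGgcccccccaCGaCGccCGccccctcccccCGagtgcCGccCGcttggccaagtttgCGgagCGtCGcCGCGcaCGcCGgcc
SDC3: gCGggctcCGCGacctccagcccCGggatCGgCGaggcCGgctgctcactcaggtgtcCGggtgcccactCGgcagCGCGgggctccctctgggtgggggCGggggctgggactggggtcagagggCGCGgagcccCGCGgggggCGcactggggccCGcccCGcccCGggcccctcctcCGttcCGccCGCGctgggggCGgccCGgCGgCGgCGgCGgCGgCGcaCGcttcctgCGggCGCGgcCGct
GPC6: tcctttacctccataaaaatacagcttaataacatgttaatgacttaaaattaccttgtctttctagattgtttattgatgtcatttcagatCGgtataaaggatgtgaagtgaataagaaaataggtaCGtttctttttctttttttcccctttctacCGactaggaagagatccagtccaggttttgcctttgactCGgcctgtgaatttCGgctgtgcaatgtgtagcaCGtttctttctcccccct
GPC4 held 32 CG dinucleotides in this stretch, SDC3 held 37 and GPC6 held 6, against a median of 11 over all 35116 promoters of the reference. Promoters were listed for 8 of the 10 members. None of their windows of 300 bases, which add 50 bases after the start, held GGAATG or its reverse complement (the core bound by TEAD factors, present in 14.0% of all promoters), CACGTG (the E-box read by TFE3 and its relatives, 7.26%) or TGANTCA (the AP-1 site, 7.71%) on either strand. This says only that these letters are not in these windows.

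Per length of exonic sequence, syndecans made up most of the family's transcripts in every group. Levels are given as RPKM, the CPM of a gene divided by the union of its annotated exons in kilobases, which allows genes to be compared with each other. The summed level of the 10 members was 119 ± 21.4 RPKM under shNT, 166 ± 44.5 under shYEATS2 and 165 ± 3.10 under shZZZ3 in TC, and 187 ± 6.75, 198 ± 0.707 and 163 ± 30.1 RPKM with those hairpins in YT (SD, n = 2 in each). SDC3 had the highest mean of the members in all 6 groups, at 38.7 to 102 RPKM, and SDC4 the next highest. In TC shYEATS2 this order rested on 1 library: replicate 1 read 42.9 RPKM for SDC4, 41.6 for GPC1 and 39.4 for SDC3, while in replicate 2 SDC3 (38.0 RPKM) was followed by SDC2 (28.2) and SDC4 (20.6). GPC1 was the most abundant glypican by mean in 5 groups (15.3 to 28.7 RPKM), and in TC shZZZ3 GPC4 (18.3 RPKM) and GPC1 (17.9 RPKM) lay close together. Lowest were GPC5 and GPC6, at means of no more than 0.0999 RPKM.

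**Figure D1:**
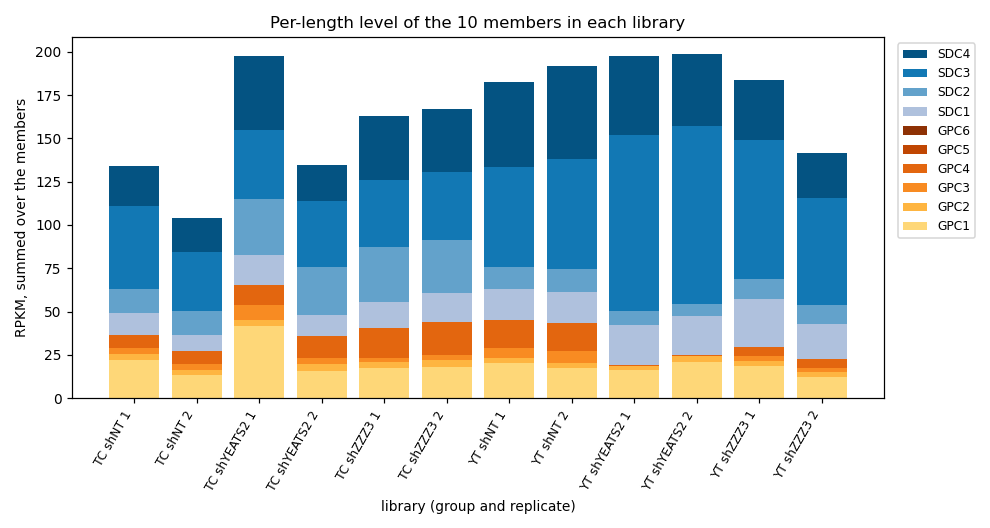
Level per exonic length (RPKM) of the 10 members in each of the 12 libraries, stacked so that the bar height is their sum, with glypicans in yellow to brown and syndecans in blue. Glypicans took 9.77% and 12.5% of the bar in the YT shYEATS2 libraries, the lowest shares of all, and SDC3 filled over 51% of it.

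The share taken by glypicans moved in YT cells. It was 22.6% and 24.9% of the summed RPKM under shNT, 9.77% and 12.5% under shYEATS2, and 16.0% and 16.1% under shZZZ3. In TC it was 26.2% and 27.2% under shNT, 26.5% and 33.2% under shYEATS2, and 25.03% and 26.3% under shZZZ3. The YT knock-down libraries were thus all below every other library, as read from these values. In these bulk samples fewer cells with a transcript and less transcript per cell cannot be told apart. No test is given, since 2 libraries against 2 allow no exact permutation p (two-sided) under 0.333. With the longest transcript in place of the exon union the order changed. In TC GPC1 (50.3 RPKM) passed SDC3 (42.8) under shYEATS2, GPC1 (30.7) came second to SDC3 under shNT, and SDC2 (38.5) came second under shZZZ3. In YT SDC3 and then SDC4 stayed highest, and GPC1 passed SDC1 under shYEATS2 (32.25 against 24.89 RPKM) and shZZZ3 (26.77 against 26.43). The glypican shares rose in level with the longest transcript, for example to 29.0 ± 2.001% in YT shNT and 16.5 ± 2.753% in YT shYEATS2 (SD, n = 2).

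GPC4, a glypican of the GPC1, GPC2, GPC4 and GPC6 branch that binds Wnt and BMP ligands and is also released as a circulating product of fat tissue, lies at chrX:133300103-133415489 on the minus strand. Its counts were 956 and 755 under shNT, 1689 and 1237 under shYEATS2 and 2116 and 1793 under shZZZ3 in TC cells, and in that order 1527 and 1406, then 63 and 26, then 720 and 597 in YT cells. Scaled to CPM, the libraries read 36.5 and 36.1, 59.5 and 62.1, 85.9 and 95.8, 80.6 and 80.9, 2.62 and 1.34, and 26.2 and 25.2 in the same order. No library of any group overlapped another group, and the order from high to low was TC shZZZ3, YT shNT, TC shYEATS2, TC shNT, YT shZZZ3 and YT shYEATS2.

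In YT cells GPC4 fell under both hairpins. With shYEATS2 it changed by -5.27 on the log2 scale (SE 0.274, adjusted p = 3.03e-06 in edgeR's quasi-likelihood test), a fall of 38.5-fold, and this was the third smallest p of all genes tested. With shZZZ3 it was -1.65 (SE 0.226, adjusted p = 0.00141), or 3.13-fold. In TC cells the direction was the opposite. GPC4 rose 2.501-fold with shZZZ3 (1.32, SE 0.224, adjusted p = 0.0144), and with shYEATS2 the value was 0.74 (SE 0.222, adjusted p = 0.439), with both libraries above both controls. The difference between the lines was -6.01 (SE 0.347, adjusted p = 1.42e-05) for the YEATS2 hairpin and -2.97 (SE 0.318, adjusted p = 0.000831) for the ZZZ3 hairpin. Between the lines themselves, GPC4 was 2.22-fold higher in YT than in TC under shNT (1.15, SE 0.223, adjusted p = 0.00848), and lower in YT under shYEATS2 (-4.86, SE 0.27, adjusted p = 9.19e-06) and shZZZ3 (-1.82, SE 0.227, adjusted p = 0.00183). The knock-down comparisons of a line share its shNT libraries.

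Each GPC4 change called in YT cells, in the difference of the lines and between the lines under a hairpin was also called in all 12 fits that left out a single library. The rise with shZZZ3 in TC was lost without either TC shZZZ3 library (log2 fold change 1.24 to 1.40 over the 12 fits, adjusted p up to 0.16) and in a fit of the 4 libraries alone (1.29, adjusted p = 0.0605). The shNT difference was lost without either YT shNT library (1.11 to 1.15, adjusted p up to 0.0792). DESeq2 called the TC shYEATS2 value (0.75, adjusted p = 0.0448).

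Some cell type markers were also called in the same YT contrasts. Of the 16 tested, 5 were called with shYEATS2 in YT, beside 20.7% of all genes tested. VIM (2.77-fold, adjusted p = 0.00129) and THY1 (2.68-fold, 0.0234) rose, while PDGFRB (2.23-fold, 0.00846), the adipocyte regulator CEBPA (11.8-fold, 0.000439) and KRT8 (3.53-fold, 0.0427) fell. CEBPA had 63 to 71 counts under shNT and 5 in each library under shYEATS2. The other epithelial markers, not called, had higher means with shYEATS2 than with shNT: KRT18 473 against 372 CPM, EPCAM 1.68 against 0.765 and CDH1 0.519 against 0.187. PLIN1, also not called, read 1.54 against 0.832 CPM, while PPARG and LPL had lower means. With shZZZ3 in YT 6 were called, beside 10% of all genes. VIM (2.58-fold, 0.00416), THY1 (2.79-fold, 0.0325) and the endothelial genes PECAM1 (8.48-fold, 0.00242) and CDH5 (3.82-fold, 0.0121) rose, and FN1 (3.10-fold, 0.00461) and CEBPA (2.90-fold, 0.0324) fell. In TC 0 were called with shYEATS2, beside 0.0434% of all genes. With shZZZ3 in TC 1 was called (FN1, 2.44-fold lower, 0.0465), beside 1.53%. The summed endothelial markers read 40.5 to 42.3 CPM in YT shNT, 31.7 to 33.6 under shYEATS2 and 137 to 139 under shZZZ3, and the summed mesenchymal markers 9528 to 11780, 7266 to 9063 and 5080 to 5276 CPM. The mesenchymal sum was mostly FN1 (means 9438, 5950 and 3049 CPM in that order). VIM (702, 1949 and 1811 CPM) and THY1 (15.3, 41.1 and 42.9 CPM) ran the other way. PDGFRB (500, 224 and 275 CPM) was lower under both hairpins. The marker calls were not repeated under other settings or without 1 library. The part of these markers in the changes of the glypicans and syndecans was not tested.

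GPC3, the other X-linked glypican, is the gene of the Simpson-Golabi-Behmel overgrowth syndrome and a marker of liver cancer. It sits 120 kb from GPC4 on the same strand, at chrX:133535745-133987100. Its CPM were 12.8 and 11.5 under shNT, 28.4 and 11.1 under shYEATS2 and 8.73 and 8.45 under shZZZ3 in TC cells, and in that order 19.1 and 21.9, then 0.874 and 1.29, then 8.81 and 7.49 in YT cells. The YT shYEATS2 libraries held 21 and 25 counts and were below all others, and TC shYEATS2 replicate 1 stood far above its partner (805 against 221 counts).

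GPC3 fell 17.7-fold with shYEATS2 in YT (-4.15, SE 0.422, adjusted p = 8.86e-05), and it also fell with shZZZ3 (-1.32, SE 0.359, adjusted p = 0.0395). The values in TC were 0.70 (SE 0.353, adjusted p = 1) and -0.50 (SE 0.357, adjusted p = 0.754). The lines differed in the effect of the YEATS2 hairpin (-4.85, SE 0.545, adjusted p = 0.00038), and for the ZZZ3 hairpin the difference was -0.82 (SE 0.504, adjusted p = 0.472). Under shYEATS2 GPC3 was lower in YT than in TC (-4.10, SE 0.42, adjusted p = 0.000128). Without TC shYEATS2 replicate 1 the TC value became -0.15, and the YEATS2 calls held in all 12 fits without 1 library. The shZZZ3 fall in YT was called in 4 of the 12 (-1.40 to -1.19, adjusted p up to 0.218): it was lost without either library of TC shZZZ3, YT shNT, YT shYEATS2 or YT shZZZ3.

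Of the protein-coding neighbors of GPC4 and GPC3, 3 were followed. Below GPC4, TFDP3 (81.7 kb away) and USP26 (203 kb) had at most 1 count in any library. Beyond GPC3, CCDC160 (chrX:134237047-134246842) had 4 to 19 counts, and its value with shYEATS2 in YT was -1.50 (SE 0.609, adjusted p = 0.103). The genes whose log2 CPM ran most like GPC4 over the 12 libraries were RSL1D1 (Pearson r = 0.968), SLC13A5 (0.962), PPARGC1B (0.961), POLR3E (0.96) and SEPTIN7P11 (0.96), as a description over libraries that share 2 lines and 3 hairpins. The r of GPC3 with GPC4 was 0.887. SLC13A5, a citrate carrier, averaged 6.67 CPM in the YT controls and 0.347 CPM under shYEATS2, and PPARGC1B, a coactivator of mitochondrial genes, 17.6 and 3.9 CPM.

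**Figure D2:**
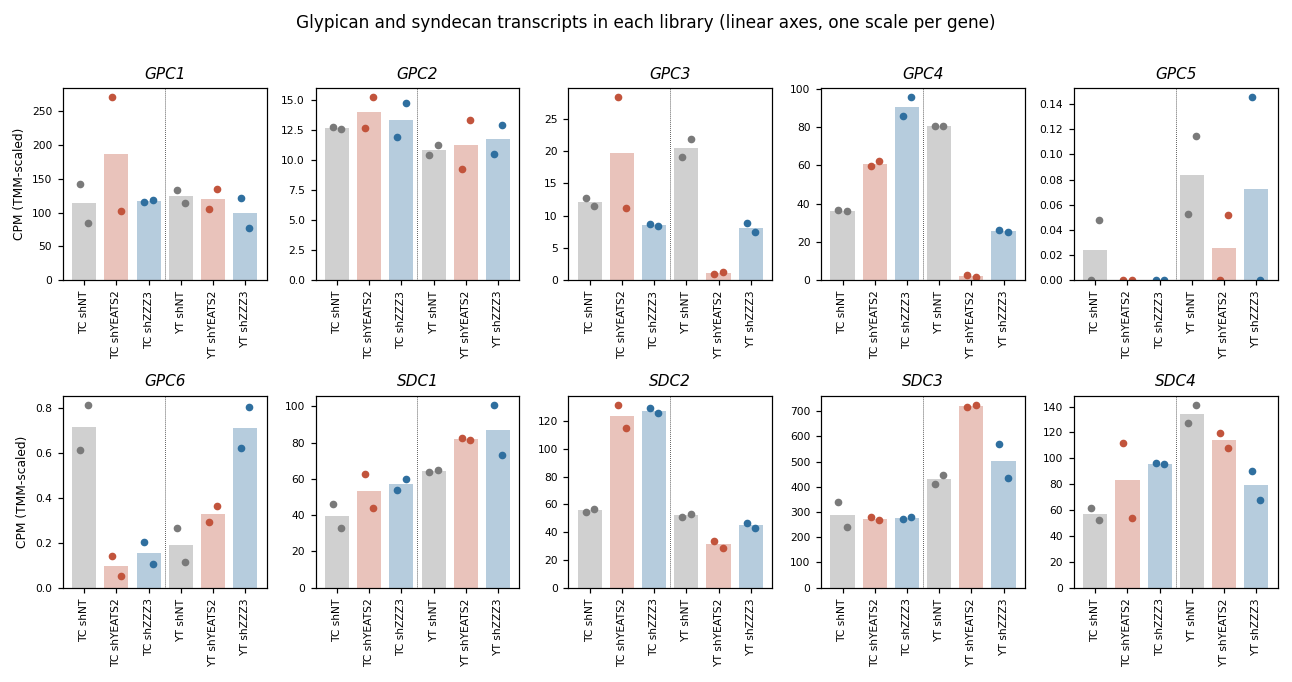
TMM-scaled CPM of each member, with 1 dot per library and bars at the mean of the 2 libraries in a group, on linear axes that start at 0 and differ between genes. GPC4 and GPC3 are near 0 in YT shYEATS2, SDC2 is high in both TC knock-down groups and SDC3 is highest in YT shYEATS2.

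The other glypicans did not pass the test within either line. GPC1 (chr2:240435663-240468076, plus strand), the glypican of muscle, brain and many tumors, had group means of 99.6 to 187 CPM that all overlapped their neighbors in order. Its highest value was 271 CPM in TC shYEATS2 replicate 1, against 103 in replicate 2. The 4 hairpin contrasts gave log2 values of -0.32 to 0.71 with adjusted p of 0.675 or more, and the TC shYEATS2 value turned to -0.17 without replicate 1. Between the lines under shYEATS2 GPC1 gave -0.64 (SE 0.394, adjusted p = 0.347, but 0.0444 with no filter). The summed epithelial markers were 911 CPM in TC shYEATS2 replicate 1 and 290 CPM in replicate 2, the summed endothelial markers were 46.8 CPM in replicate 1 and 244 CPM in replicate 2, and the part of either in these values was not tested. GPC2 (chr7:100169606-100177381, minus strand), a glypican of the developing nervous system, ranged from 9.24 to 15.3 CPM over all libraries, and its contrasts gave -0.31 to 0.14 with adjusted p of 0.469 or more.

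GPC5 (chr13:91398621-92873682, plus strand), the nearest relative of GPC3, had between 0 and 4 counts per library, and 7 of the 12 libraries had none. GPC6 (chr13:93226807-94408020, plus strand), a glypican of skeletal growth that starts 353 kb downstream of GPC5, was read at the edge of detection. It had 16 and 17 counts under shNT, 4 and 1 under shYEATS2 and 5 and 2 under shZZZ3 in TC cells, and in that order 5 and 2, then 7 and 7, then 17 and 19 in YT cells. In TC both hairpin groups lay below shNT (-2.06, SE 0.444, adjusted p = 0.188, and -1.68, SE 0.443, adjusted p = 0.11), and in YT both lay above it (0.56, SE 0.472, adjusted p = 0.424, and 1.51, SE 0.451, adjusted p = 0.0568). None of these passed the test, although the TC shYEATS2 value was called with no filter (-2.08, adjusted p = 0.0275) and the YT shZZZ3 value with the GC trend removed (1.58, adjusted p = 0.0219). The difference between the lines did pass, at 2.62 (SE 0.655, adjusted p = 0.0279) for the YEATS2 hairpin and 3.18 (SE 0.632, adjusted p = 0.0171) for the ZZZ3 hairpin. Between the lines GPC6 gave -1.50 under shNT (SE 0.454, adjusted p = 0.0618, but 0.0207 with the GC trend removed), 1.12 under shYEATS2 (SE 0.456, adjusted p = 0.144) and 1.68 under shZZZ3 (SE 0.44, adjusted p = 0.0749, but 0.0469 with no filter). DESeq2 did not call the first difference, that of the YEATS2 hairpin (adjusted p = 0.0581), and fitted folds at such counts depend on the prior count. It was also lost (2.33 to 3.11, adjusted p up to 0.107) without TC shYEATS2 replicate 2, YT shNT replicate 2 or either YT shYEATS2 library, and the second (2.92 to 3.70, adjusted p up to 0.0888) without either TC shZZZ3 library or YT shNT replicate 2.

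Among the syndecans, SDC2 went apart between the lines. SDC2 (chr8:96493813-96611790, plus strand) is the syndecan of fibroblasts and other mesenchymal cells. Its CPM were 54.7 and 56.6 under shNT, 132 and 115 under shYEATS2 and 129 and 126 under shZZZ3 in TC cells, and in that order 51.2 and 53.0, then 34.01 and 28.8, then 46.7 and 43.2 in YT cells. The 4 TC hairpin libraries were above all others, and the 4 YT hairpin libraries were below all others.

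SDC2 rose 2.22-fold with shYEATS2 in TC (1.15, SE 0.166, adjusted p = 0.0441) and 2.29-fold with shZZZ3 (1.19, SE 0.166, adjusted p = 0.00461). In YT it fell with shYEATS2 (-0.73, SE 0.166, adjusted p = 0.0102), and the shZZZ3 value was -0.21 (SE 0.165, adjusted p = 0.474). Both differences between the lines passed the test, at -1.88 (SE 0.235, adjusted p = 0.000611) for the YEATS2 hairpin and -1.41 (SE 0.234, adjusted p = 0.00748) for the ZZZ3 hairpin. Under shNT the lines differed by -0.10 (SE 0.165, adjusted p = 0.768), whereas YT was below TC under shYEATS2 (-1.97, SE 0.17, adjusted p = 4.14e-05) and shZZZ3 (-1.50, SE 0.168, adjusted p = 0.00078).

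The rise of SDC2 with shYEATS2 in TC stood close to the threshold. It was called in 3 of 12 fits without 1 library (1.03 to 1.22, adjusted p up to 0.178), being lost without either library of TC shNT, TC shZZZ3, YT shNT or YT shYEATS2 or without TC shYEATS2 replicate 1, and it was not called in a fit of the 4 libraries alone (1.13, adjusted p = 0.531). With shZZZ3 the rise was lost without either TC shZZZ3 library (1.15 to 1.22, adjusted p up to 0.0703) and in the fit of 4 libraries (1.16, adjusted p = 0.0734). The fall in YT was lost without either YT shNT library or YT shYEATS2 replicate 2 (-0.84 to -0.61, adjusted p up to 0.104) and with a correction for GC content (-0.48, adjusted p = 0.0636). Of the differences between lines, that of the ZZZ3 hairpin was lost without YT shNT replicate 2 (-1.43 to -1.32 over the 12 fits, adjusted p up to 0.0554).

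SDC3 (chr1:30869466-30908758, minus strand), the syndecan first known from neurons, had the highest mean level of the members and moved opposite to GPC4 in YT. TC cells read 340 and 239 CPM under shNT, 279 and 269 under shYEATS2, and 273 and 278 under shZZZ3. YT cells read 411 and 448, 715 and 726, and 569 and 437 CPM with those hairpins. All YT libraries were above all TC libraries. SDC3 rose 1.68-fold with shYEATS2 in YT (0.75, SE 0.202, adjusted p = 0.0235), and the other hairpin contrasts gave -0.08 (SE 0.201) and -0.07 (SE 0.201) in TC and 0.23 (SE 0.201) with shZZZ3 in YT, none of them called. YT was above TC under shYEATS2 (1.40, SE 0.205, adjusted p = 0.00104) and shZZZ3 (0.87, SE 0.203, adjusted p = 0.0473), and under shNT the value was 0.57 (SE 0.202, adjusted p = 0.109), which library totals (adjusted p = 0.0395) and the GC trend removed (0.00096) called.
The difference between the lines in the effect of the YEATS2 hairpin on SDC3 was 0.83 (SE 0.285, adjusted p = 0.0996), and it was called with DESeq2 (0.84, adjusted p = 0.0483), library totals (0.75, adjusted p = 0.0498) and the GC trend removed (0.58, adjusted p = 0.026). The rise in YT was lost without any of the 4 libraries of its contrast (0.68 to 0.83, adjusted p up to 0.149). The shZZZ3 difference between the lines was called in 5 of 12 fits without 1 library (0.70 to 1.04, adjusted p up to 0.349), being lost without either library of TC shZZZ3, YT shNT or YT shYEATS2 or without YT shZZZ3 replicate 1, and not in the fit of its 4 libraries (0.88, adjusted p = 0.0897).

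SDC4 (chr20:45325288-45348424, minus strand), a syndecan of focal adhesions found in most cell types, was higher in YT than in TC under shNT. Under shNT the TC libraries read 61.5 and 52.2 CPM against 127 and 141 for YT, a log2 difference of 1.24 (SE 0.289, adjusted p = 0.0214) or 2.36-fold. The means of the hairpin groups lay between these, with libraries at 112 and 53.9 (shYEATS2) and 96.2 and 95.3 (shZZZ3) for TC, and 120 and 108 (shYEATS2) and 90.5 and 67.9 (shZZZ3) for YT. No hairpin contrast was called (0.55, 0.75, -0.24 and -0.76, with adjusted p of 0.125 or more), and the difference between the lines for the ZZZ3 hairpin was -1.51 (SE 0.404, adjusted p = 0.0629), while DESeq2 (adjusted p = 0.0108), a GC correction (0.0213), a fit of the 8 libraries alone (0.0248) and the fit with no filter (0.000792) called it. The shZZZ3 value in YT was called with the GC trend removed (-0.78, adjusted p = 0.0454) and with no filter (-0.72, adjusted p = 0.0299). The shNT difference was lost without either YT shNT library (1.10 to 1.34, adjusted p up to 0.146).

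SDC1 (chr2:20200797-20225433, minus strand), the syndecan of epithelia and plasma cells, had means of 39.7 to 57.0 CPM in the TC groups and 64.3 to 87.0 in the YT groups. The lowest library was TC shNT replicate 2 (33.2 CPM) and the highest YT shZZZ3 replicate 1 (101 CPM). SDC1 was called in none of the 9 contrasts, its largest values being the differences between the lines (0.69, SE 0.234, adjusted p = 0.0924 under shNT, 0.62, SE 0.233, adjusted p = 0.111 under shYEATS2 and 0.61, SE 0.233, adjusted p = 0.267 under shZZZ3). DESeq2 put the first at an adjusted p of 0.0499, and with the GC correction all were called (0.90, 0.58 and 0.66, adjusted p = 0.000863, 0.00763 and 0.0133). The shYEATS2 value in YT (0.35, adjusted p = 0.306) was called in a fit of its 4 libraries alone (adjusted p = 0.0145), in which 48.6% of all genes tested were called. The summed epithelial markers spanned 285 to 535 CPM in TC shNT and 501 to 562 CPM in YT shNT. Under shYEATS2 they spanned 290 to 911 CPM in TC and 473 to 567 CPM in YT. Under shZZZ3 TC was the higher line, at 748 to 910 CPM against 403 to 717 CPM in YT. The part of these markers in the SDC1 values was not tested.

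**Figure D3:**
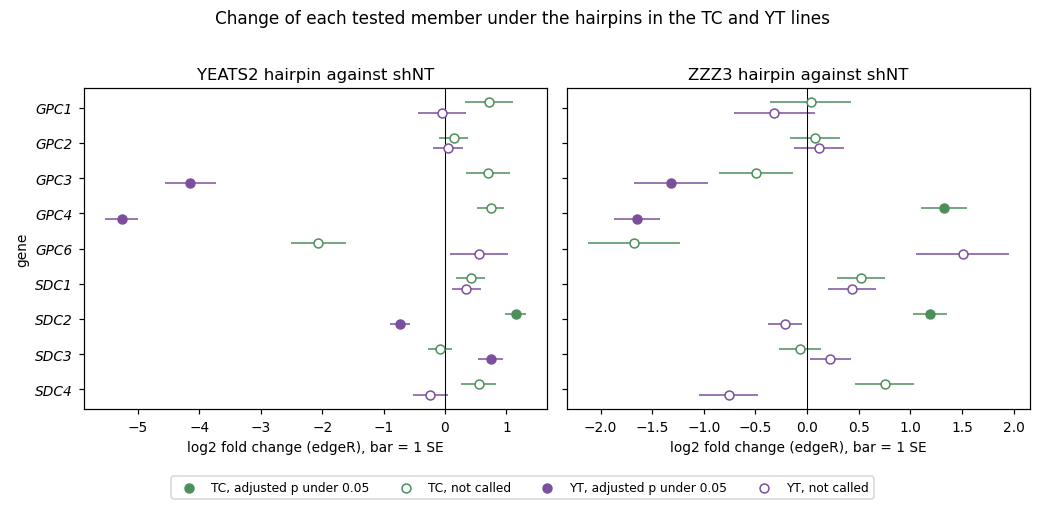
Log2 fold change of the 9 tested members with the YEATS2 hairpin (left) and the ZZZ3 hairpin (right) in TC (green) and YT (purple), with bars of 1 SE, filled where the adjusted p was under 0.05. By sign alone, GPC1, GPC4, GPC6, SDC2, SDC3 and SDC4 lie on opposite sides of 0 in the lines under both hairpins. Of these, only GPC4 (ZZZ3 hairpin) and SDC2 (YEATS2 hairpin) were called in both lines. The difference between the lines was called for GPC4, SDC2 and the low-count GPC6, and not for GPC1, SDC3 or SDC4. In TC, SDC3 (-0.08 and -0.07, SE 0.201) and GPC1 with shZZZ3 (0.03, SE 0.393) lie within 1 SE of 0. The TC shYEATS2 values of GPC1, SDC3 and SDC4 changed sign in some fits without 1 library. The axes of the panels differ in range.

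As a group, the members were called at these counts. With shYEATS2 in TC 1 of 9 members was called (higher), where 0.0434% of all genes tested were called. With shZZZ3 in TC 2 of 9 were called, both higher, against 1.53% of all genes. In YT 4 of 9 were called with shYEATS2 (1 higher, 3 lower), against 20.7%, and 2 of 9 with shZZZ3 (both lower), against 10%. The medians of the members were 0.55, 0.08, -0.05 and -0.21 in these 4 contrasts, and those of all genes lay between -0.01 and 0.01. Of the differences between the lines, 4 of 9 were called for the YEATS2 hairpin (9.37% of all genes) and 3 of 9 for the ZZZ3 hairpin (4.32%). Between YT and TC 2 of 9 were called under shNT (9.23%), 4 of 9 under shYEATS2 (12.2%) and 3 of 9 under shZZZ3 (2.62%). The members were chosen with results for GPC4 known, so these counts are a description.

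Other genes of heparan sulfate were followed in a list of 44, of which 36 were tested. Most encode enzymes that build, trim and release it. The list also held 3 matrix proteoglycans, 4 syndecan tail adaptors and the part-time cell-surface proteoglycan TGFBR3, so its called shares are not shares of the enzymes alone. The chain is started by xylosyltransferases, grown by the EXT and EXTL enzymes, sulfated by NDST and HS2ST, HS6ST and HS3ST enzymes, and later edited by SULF sulfatases and cut by heparanase (HPSE). With shYEATS2 in TC 0 of the 36 passed the edgeR test (6 at an unadjusted p under 0.05, and 0 with DESeq2). With shZZZ3 in TC 1 was called, with shYEATS2 in YT 5 (2 higher, 3 lower), and with shZZZ3 in YT 2 (1 higher, 1 lower). The medians of the list were 0.04, 0.03, 0.00 and -0.08, and its called shares of 0%, 2.78%, 13.9% and 5.56% stand beside the background above.

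XYLT1, which like XYLT2 adds the first xylose of a chain to the core protein, fell in YT with both hairpins. YT cells read 97.1 and 99.2 CPM under shNT, 16.98 and 17.3 under shYEATS2, and 29.5 and 29.7 under shZZZ3, while the 6 TC libraries lay between 61.6 and 68.5. The log2 fold changes in YT were -2.51 (SE 0.165, adjusted p = 9.87e-06) and -1.73 (SE 0.16, adjusted p = 0.000231), or 5.69-fold and 3.31-fold. The difference between the lines was -2.56 (SE 0.224, adjusted p = 0.000109) for the YEATS2 hairpin and -1.69 (SE 0.221, adjusted p = 0.00218) for the ZZZ3 hairpin, and these 4 calls held in all 12 fits without 1 library. Under shNT XYLT1 was higher in YT than in TC (0.59, SE 0.156, adjusted p = 0.0362), a call lost in 7 of the 12 (0.50 to 0.63, adjusted p up to 0.239; without TC shNT replicate 1 or either library of TC shZZZ3, YT shNT or YT shYEATS2) and also with no filter (adjusted p = 0.191) or with the 4 libraries alone (0.223). Under shYEATS2 (-1.96, SE 0.162, adjusted p = 3.68e-05) and shZZZ3 (-1.10, SE 0.158, adjusted p = 0.00352, but 0.0587 without TC shZZZ3 replicate 2) it was lower in YT. XYLT2, its relative, had 57.4 to 111 CPM and was called in no contrast.

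The other called genes in YT were of several steps. EXTL2, a transferase that limits chain growth, read 111 and 102 CPM in YT shNT and 52.8 and 49.8 in YT shYEATS2 (-1.05, SE 0.251, adjusted p = 0.0131). HS3ST3B1, a 3-O-sulfotransferase, rose from 7.34 and 7.71 to 25.3 and 24.5 CPM with shYEATS2 (1.71, SE 0.229, adjusted p = 0.000422) and to 18.1 and 17.8 with shZZZ3 (1.24, SE 0.227, adjusted p = 0.00588). HPSE rose from 4.70 and 5.35 to 12.2 and 11.7 CPM with shYEATS2 (1.23, SE 0.235, adjusted p = 0.00384). SULF2, which removes 6-O-sulfates outside the cell and was the more abundant sulfatase, fell from 263 and 304 to 188 and 202 CPM with shYEATS2 (-0.54, SE 0.167, adjusted p = 0.0399). Of these, EXTL2 was lost without any library of its contrast (adjusted p up to 0.111), SULF2 without those or either TC shZZZ3 library (up to 0.24) and with no filter (0.0882), HPSE without YT shNT replicate 1 (0.0585), and the shZZZ3 rise of HS3ST3B1 without either YT shNT library (up to 0.0752).

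The lines differed in the effect of the YEATS2 hairpin on SULF2 (-1.04, SE 0.235, adjusted p = 0.0174) and HPSE (1.36, SE 0.333, adjusted p = 0.0255). SULF1, the relative of SULF2, was also called (adjusted p = 0.0326), with 2 and 0 counts under shNT and 57 and 0 under shYEATS2 in TC, and 17 and 15 against 0 and 0 in YT. Without TC shYEATS2 replicate 1 SULF1 fell below the filter, and the call was lost without any of the 4 YT shNT and YT shYEATS2 libraries (adjusted p up to 0.115) and with DESeq2 (0.0859). The SULF2 difference was lost without YT shNT replicate 2 or either YT shYEATS2 library (up to 0.102), and that of HPSE without those, YT shNT replicate 1 or TC shYEATS2 replicate 2 (up to 0.118). For the ZZZ3 hairpin the lines differed in HS6ST3, a 6-O-sulfotransferase (-3.24, SE 0.569, adjusted p = 0.00994), which rose in TC from 5 and 7 to 41 and 56 counts (2.79, SE 0.428, adjusted p = 0.0085) and had 32 and 27 counts in the YT controls against 27 and 32 under shZZZ3. The TC rise was lost without TC shNT replicate 1 or TC shZZZ3 replicate 2 (adjusted p up to 0.0806), and the difference between the lines without either YT shNT library (up to 0.0536).

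Under shNT 4 of the 36 genes (11.1%) were higher in YT than in TC and none was lower, beside the 9.23% of all genes called in this contrast (1027 higher, 672 lower). Besides XYLT1 they were HS6ST2, on the X chromosome as GPC4 is (12.9 and 20.6 CPM in TC, 45.1 and 41.3 in YT, log2 1.37, SE 0.32, adjusted p = 0.0218), HS6ST3 (2.31, SE 0.435, adjusted p = 0.00739) and ADAM17, a protease that sheds syndecans (53.8 and 87.5 CPM in TC, 121 and 129 in YT, 0.82, SE 0.233, adjusted p = 0.049). ADAM17 was called in 3 of 12 fits without 1 library (0.49 to 1.19, adjusted p up to 0.272) and not with library totals (0.78, adjusted p = 0.107), median-of-ratios scaling (0.82, adjusted p = 0.0508) or the 4 libraries alone (0.82, adjusted p = 0.173), the 3 being the fits without TC shNT replicate 2 or either YT shZZZ3 library. HS6ST2 was lost without TC shNT replicate 1 or either YT shNT or YT shYEATS2 library (1.04 to 1.71, adjusted p up to 0.151), and HS6ST3 without TC shNT replicate 1 or YT shNT replicate 1 (1.99 to 2.59, adjusted p up to 0.0655).

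**Figure D4:**
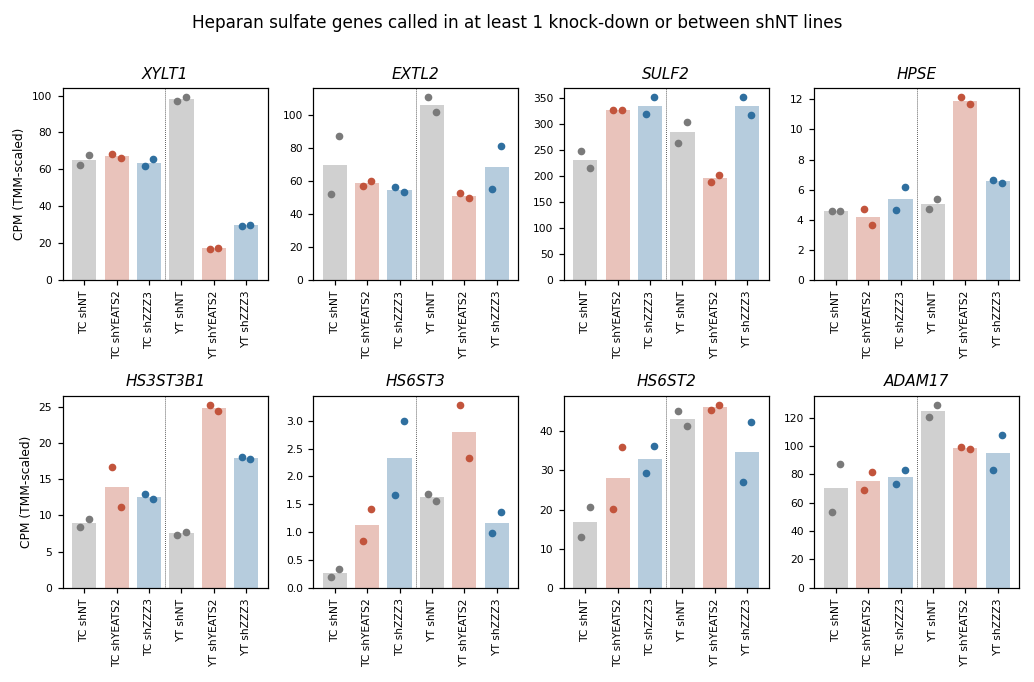
TMM-scaled CPM of the heparan sulfate genes called in a knock-down contrast or between the shNT lines, with 1 dot per library and bars at the mean of 2, on linear axes that start at 0. XYLT1 is lowest in the YT knock-down groups, while HS3ST3B1 and HPSE are highest in YT shYEATS2.

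Under the hairpins the lines also differed in HS3ST3B1 (0.83, SE 0.221, adjusted p = 0.0306), HPSE (1.48, SE 0.235, adjusted p = 0.0017), HS6ST3 (1.28, SE 0.374, adjusted p = 0.0466) and SULF2 (-0.74, SE 0.167, adjusted p = 0.013) with shYEATS2, and in NOTUM (-2.68, SE 0.62, adjusted p = 0.0453) with shZZZ3. NOTUM is a secreted enzyme listed here for its reported release of glypicans, and had 141 and 95 counts in TC shZZZ3 and 30 and 10 in YT shZZZ3. HPSE was called in all 12 fits without 1 library. SULF2 was lost without either YT shYEATS2 library (adjusted p up to 0.119), HS3ST3B1 (up to 0.165) and HS6ST3 (up to 0.303) were kept in 5 of the 12, and library totals lost both (adjusted p = 0.0552 and 0.0801), as did for HS6ST3 the 4 libraries alone (0.0562). NOTUM was kept in 4 (up to 0.236), those without either library of TC shNT or TC shYEATS2. The matrix proteoglycans HSPG2, AGRN and COL18A1 and the syndecan tail adaptors SDCBP, CASK, GIPC1 and SDCBP2 were called in none of the 9 contrasts.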

How the data were processed

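Stranded poly(A) mRNA libraries had been sequenced as paired ends, aligned to hg38 with HISAT2 and quantified with Salmon by the authors, who call the libraries of a group biological duplicates. The deposited values are whole-number counts per gene for 12 libraries, and whether they come from Salmon or from alignments is not given in the sources used here. With 2 libraries a group, p-values measure only the spread between these libraries.

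Genes whose mean over the libraries reached 5 counts were kept, and TMM-scaled counts were fitted for all 12 libraries in edgeR 4.0.16 (R 4.3.3) by a two-sided quasi-likelihood test with a prior count of 2. P-values were adjusted by Benjamini-Hochberg over all 18415 genes tested and called under 0.05. CPM and RPKM were computed here from these counts and GENCODE 44 exons on GRCh38. Alternatives were DESeq2 1.42.0, other scalings, no filter, a replicate block, a GC trend, each contrast alone and each library left out. Every member is named, with list genes where called. Genes most like GPC4 were ranked by Pearson's r. The members and gene lists were chosen with earlier results of these data known.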

Additional observations from a re-analysis of the deposited data

Results flagged for a closer look

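The effect of a hairpin differed between the lines (YT minus TC, interaction term of the edgeR fit, adjusted p under 0.05) for 4 members and 4 list genes with the YEATS2 hairpin. These were 44.4% of the 9 members and 11.1% of the 36 list genes tested, beside 9.37% of all genes. The log2 differences were -4.85 for GPC3, -6.01 for GPC4, 2.62 for GPC6, -1.88 for SDC2, -2.56 for XYLT1, -6.58 for SULF1, -1.04 for SULF2 and 1.36 for HPSE. With the ZZZ3 hairpin they were -2.97 for GPC4, 3.18 for GPC6, -1.41 for SDC2, -1.69 for XYLT1 and -3.24 for HS6ST3. For that hairpin 33.3% of the members and 5.56% of the list were called, beside 4.32% of all genes. The values of GPC6 and SULF1 rest on few counts. Groups of 2 libraries were not searched for outlying samples.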

How the results depend on the processing

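Over 9 contrasts 25 member changes were called. In 300 repeats that left out 1 library 253 kept the call and 47 lost it, and in 175 repeats under other settings 169 kept it and 6 lost it, with no called change turning direction. All 25 were called with median-of-ratios scaling, library totals, no filter and the replicate block. The replicate numbers were not shown to pair the libraries (correlations of deviations -0.456 to 0.907 over 15 pairs of groups, 7 over 0.1). The block raised the heparan sulfate list to 8 called genes for YT shYEATS2 and 4 for YT shZZZ3, where 25.3% and 12.4% of all genes were called. The block also called SDC4 for the difference of the lines with the ZZZ3 hairpin (-1.55, adjusted p = 0.0234) and SDC1 between the shNT lines (0.71, adjusted p = 0.0442), and changed no other member's call. Without the filter the members had 2 calls for TC shYEATS2, and the list had 2 (shYEATS2) and 3 (shZZZ3) in TC and 10 (shYEATS2) and 6 (shZZZ3) in YT, where 0.646%, 2.26%, 14.8% and 8.13% of all genes were called. With the GC trend removed the list had 10 for YT shYEATS2, 8 for YT shZZZ3 and 7 for the shNT lines, and the members 4 for YT shZZZ3 and 5 for the shNT lines, where 31.0%, 20.6% and 18.5% of all genes were called. Contrasts fitted alone gave 0 members for TC shYEATS2 and 0 for TC shZZZ3, and 17 list genes for YT shYEATS2, where 0.0108%, 0.848% and 48.6% of all genes were called. DESeq2 gave 2 members for TC shYEATS2, where 0.648% of all genes were called. The causes were not tested.

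Without 1 library the members called ranged from 0 to 1 (shYEATS2) and 0 to 2 (shZZZ3) in TC, 2 to 4 (shYEATS2) and 1 to 4 (shZZZ3) in YT, 1 to 4 for the difference of the lines with the ZZZ3 hairpin and 0 to 3 for the shNT lines. The list ranged from 0 to 1 (shYEATS2) and 0 to 1 (shZZZ3) in TC, 2 to 10 (shYEATS2) and 1 to 3 (shZZZ3) in YT, and 0 to 8 for the shNT lines. The number of all genes called also varied between these fits. These ranges are therefore not read as results about the members or the list. Values that changed sign were all of changes not called. GPC1 was -0.0014 for TC shZZZ3 without the filter, and with the GC trend removed GPC2 was -0.22 for YT shYEATS2 and -0.044 for the difference with the ZZZ3 hairpin. Without 1 library GPC1 ranged from -0.17 to 1.23 for TC shYEATS2, -0.31 to 0.44 for TC shZZZ3, -0.24 to 0.14 for YT shYEATS2, -1.27 to 0.13 and -0.74 to 0.016 for the differences with the YEATS2 and ZZZ3 hairpins, and -0.23 to 0.52, -1.18 to 0.22 and -0.54 to 0.045 between the lines under shNT, shYEATS2 and shZZZ3. GPC2 ranged from -0.015 to 0.25 (shYEATS2) and -0.084 to 0.22 (shZZZ3) in TC, -0.22 to 0.31 (shYEATS2) and -0.049 to 0.30 (shZZZ3) in YT, and -0.35 to 0.18 and -0.11 to 0.24 for those differences. GPC3 ranged from -0.15 to 1.20 for TC shYEATS2 and -0.15 to 0.027 between the shZZZ3 lines, SDC1 from -0.31 to 0.24 and -0.31 to 0.18 for those differences, SDC3 from -0.33 to 0.18 for TC shYEATS2 and -0.32 to 0.19 for TC shZZZ3, and SDC4 from -0.10 to 0.96 for TC shYEATS2. The depth leaves GPC5 and GPC6 near the floor of detection.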
